A study of Mus musculus with 4 samples.

Results

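Genes of the monocyte and macrophage programme, many of them known targets of the transcription factor PU.1 in myeloid cells, were followed in a mouse B-cell leukaemia with and without Anp32b. The members were chosen by gene symbol, 31 genes of the 16613 listed in each deposited file, and all 31 were found. The material was GFP+ bone marrow of recipient mice that had been given B220+ marrow cells carrying introduced N-myc. Per the labels these are B-ALL cells induced by N-myc, an acute leukaemia of B lymphoblasts, in strain C57BL/6. Wild-type donor cells were Anp32b+/+ and knockout donor cells were Anp32b-/-, so both groups carry N-myc and GFP and differ by label only in the Anp32b genotype. There were 2 libraries in each group. The sources used here give no age, recipient genotype, pooling or number of animals. The p-values therefore rest on differences among 4 libraries that may be only technical. The title of the series names PU.1, the product of Spi1, as the factor of interest.

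Monocytes and macrophages are phagocytes that arise from marrow progenitors under the receptors for M-CSF and GM-CSF. PU.1 and the C/EBP factors switch on their genes, among them Fc receptors, the NADPH oxidase that makes superoxide, lysosomal enzymes and receptors for microbes and dying cells. PU.1 also acts in early B cells, where lower levels of it are needed, and several genes of the set are used by B cells too.

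The libraries held between 19581600 and 19758700 estimated reads, rounded, and levels are given as CPM, reads scaled to library size with TMM factors. A gene with 0 reads may have a level of up to 3 reads, or 0.151 to 0.155 CPM. That floor and the counting interval given for Fcgr4 hold counting error alone. Anp32b itself was at 774 and 853 CPM in wild type and at 74.4 and 70.6 CPM in knockout. The 10 B lineage markers summed to 5799 and 5732 CPM in wild type and to 5261 and 5303 CPM in knockout. Of these, 5 fell and none rose, among them Rag1, the recombinase gene, by 1.75 on the log2 scale, whereas Pax5 (0.0025) was not called. Among markers of other cells, 15 of 16 neutrophil genes fell, and their sum was 660 and 672 CPM in wild type and 134 and 132 CPM in knockout, 5.0-fold lower. The 4 Y-linked genes, which mark male cells and not a cell type, all fell (sums of 156 and 173 against 42.5 and 41.7 CPM). Y-linked RNA thus differed with genotype but was present in all 4 libraries, at 25.8 and 25.4 percent of the wild-type mean in knockout. The sex of the cells and the genotype cannot be told apart. Of 4 tested NK cell genes 2 were called lower (sums of 5.52 and 7.01 against 1.18 and 2.01 CPM), and both passed the filter on low counts through wild type alone, so their direction was fixed by it. Of 3 tested T cell genes 1 rose and 1 fell. Cd3e, which defines T cells, was at 0 reads in both knockout libraries, with 2 and 4 reads in wild type. Of 5 tested genes of plasmacytoid dendritic cells 2 were called lower, 1 of them (Pacsin1) past the filter through wild type alone. Of 10 erythroid genes 1 (Car1) was called higher, past the filter through knockout alone. None was called among 3 tested genes of conventional dendritic cells, 2 of mast cells and basophils, 1 of megakaryocytes and 1 of stroma and endothelium. Of all tested genes 12.6% were called lower and 10.9% higher. The part of other cells, and of the sex of the cells, in the results below was not tested.

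Because PU.1 binds promoters of many myeloid genes, the RefSeq promoters (GRCm38.p6, 250 bases before and 50 after the start of the transcript) were searched on both strands for 2 forms of its site, GAGGAAGT and the shorter GAGGAA it contains. Of the 31 members 22 had a promoter in the table. GAGGAA stood in that of 14 of the 22, whereas 31.3% of 27025 genes held it. GAGGAAGT stood in 4 of the 22 (Fcgr4, Ctss, F13a1 and C1qc), against 3.69% of genes. TTGCNNAA, a form of the C/EBP site, stood in 2 of the 22 (Fcgr3 and Cd68), against 12.2% of genes. Set against the calls given below, GAGGAA stood in 5 of 8 members that were called lower and in 9 of the 14 others, and GAGGAAGT in 2 of 8 and 2 of 14. A match is a run of letters, not a measured binding site. The set was drawn up partly from known PU.1 targets, so an excess of PU.1 letters over all genes is no independent support. Shown here are Cybb and Lyz2, the members with the smallest p, and Fcgr4, Ctss and C1qc, of which the first was called lower and the other two were not called. Capitals mark both PU.1 forms, and TTCCTC is GAGGAA on the opposite strand.
Cybb: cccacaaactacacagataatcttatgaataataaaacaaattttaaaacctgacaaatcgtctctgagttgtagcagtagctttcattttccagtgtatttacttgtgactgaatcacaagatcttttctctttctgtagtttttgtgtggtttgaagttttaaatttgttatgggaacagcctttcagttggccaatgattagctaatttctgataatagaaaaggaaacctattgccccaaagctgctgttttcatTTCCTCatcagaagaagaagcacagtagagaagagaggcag
Lyz2: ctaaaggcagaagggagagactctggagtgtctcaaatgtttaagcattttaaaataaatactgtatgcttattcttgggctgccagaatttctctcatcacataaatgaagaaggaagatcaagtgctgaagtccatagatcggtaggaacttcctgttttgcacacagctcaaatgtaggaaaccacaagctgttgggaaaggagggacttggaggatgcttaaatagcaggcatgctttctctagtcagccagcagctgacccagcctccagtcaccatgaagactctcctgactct
Fcgr4: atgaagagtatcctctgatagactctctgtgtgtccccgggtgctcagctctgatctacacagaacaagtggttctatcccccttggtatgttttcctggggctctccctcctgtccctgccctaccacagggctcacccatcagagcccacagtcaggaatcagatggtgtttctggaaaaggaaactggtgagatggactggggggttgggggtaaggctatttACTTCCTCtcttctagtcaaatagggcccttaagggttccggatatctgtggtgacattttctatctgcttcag
Ctss: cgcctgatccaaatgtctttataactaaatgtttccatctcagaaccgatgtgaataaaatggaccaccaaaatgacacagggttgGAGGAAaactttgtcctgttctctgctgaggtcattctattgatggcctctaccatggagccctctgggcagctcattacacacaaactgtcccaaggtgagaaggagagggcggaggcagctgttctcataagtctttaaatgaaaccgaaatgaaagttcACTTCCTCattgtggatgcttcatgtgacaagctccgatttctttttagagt
C1qc: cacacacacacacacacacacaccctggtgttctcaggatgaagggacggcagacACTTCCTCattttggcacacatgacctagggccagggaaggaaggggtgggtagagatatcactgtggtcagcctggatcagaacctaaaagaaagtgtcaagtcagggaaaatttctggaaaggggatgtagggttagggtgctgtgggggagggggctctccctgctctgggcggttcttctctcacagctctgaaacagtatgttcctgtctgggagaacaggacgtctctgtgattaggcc

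The windows lie at chrX:9469275-9469574 (minus strand) for Cybb, chr10:117282223-117282522 (minus) for Lyz2, chr1:171018676-171018975 (plus) for Fcgr4, chr3:95526536-95526835 (plus) for Ctss and chr4:136892865-136893164 (minus) for C1qc. In Fcgr4 the first capital letter lay 24 bases before the start, in Ctss the longer match began 2 bases before it, and in C1qc it began 195 bases before it. In Cybb the match began 9 bases after the start base. The Cybb window lies inside the span given for the gene (9435252 to 9487766), so its start is not the outer end of the gene. The Lyz2 window held neither form.

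Over the set, more members were called lower than higher in knockout. The members were chosen with earlier results of these data known, so a gap to the share of all genes is description only. Of the 31 members 28 passed the filter on low counts, which asks for about 10 reads (0.509 CPM) in 2 libraries. Fcgr4 passed it only through wild type, so it had to differ. Of these 28, edgeR's quasi-likelihood test called 11 lower and 1 higher in knockout at an adjusted p under 0.05. Over all 12123 tested genes 12.6% were called lower and 10.9% higher. Below, a gene that reached the filter in both genotypes is 1 that met the cutoff in at least 1 library of each. Of the 27 members that did, 10 were called lower and 1 higher, against 12% and 10.8% of all such genes. Adgre1, not called, is among them with 2 wild-type libraries and 1 knockout library past the cutoff. This split thus does not remove all of the filter's effect. Log2 fold changes were below 0 for 22 of the 28 and for 49.6% of all tested genes. The median of the 28 was -0.42, and that of all tested genes was 0.0021. Over the 27 without Fcgr4 it was -0.33, against 0.0037 for all genes that reached the filter in both genotypes. The counts of the 28, here and below, include Fcgr4. The libraries of the genotypes did not overlap, with knockout lower, for 17 of the 28 (30.5% of all tested genes), and with knockout higher for 3 (30.0%). At a fold change of at least 2 as well, 9 were called lower (3.90% of tested genes) and none higher (1.30%). Lyz2, Cybb, Fcer1g, Clec7a and Sirpa were called lower in all 10 refits with other tools, filters or libraries that tested them. Each of the other 6 lost its call in at least 2 of these fits. With DESeq2 5 members were called lower, without knockout replicate 1 there were 7, and without knockout replicate 2 there were 6. In bulk RNA, fewer cells of a type and less RNA per cell cannot be told apart.

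**Figure D1:**
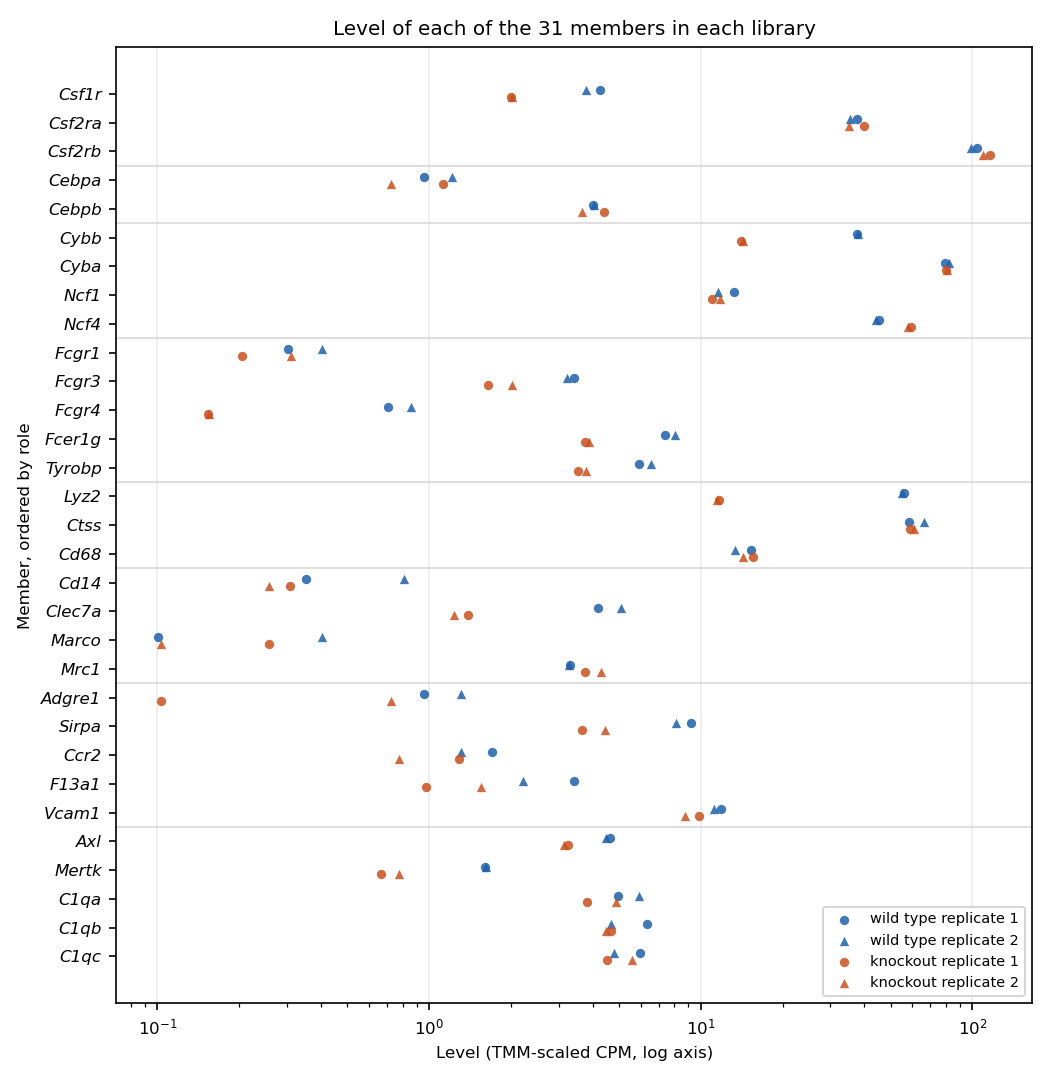
Level of each of the 31 members in each library in TMM-scaled CPM on a log axis, ordered by role, with wild type in blue and knockout in orange, and circles for replicate 1 and triangles for replicate 2. Lyz2, Cybb, Clec7a and Sirpa show a clear gap between genotypes, while Cyba, Ctss and Csf2ra overlap.

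By level, of 10 tested members at 10 CPM or more in wild type, 2 fell (Lyz2 and Cybb) and 1 rose, where 11.4% of all tested genes at such levels were called lower. Of 18 tested members under 10 CPM, 9 fell and none rose, where 15.7% of all tested genes at such levels were called lower. One of these 9 is Fcgr4, and the difference between the levels was not tested. Reads of 9 members were split between genes in at least 1 library, as the decimals in the files show (Csf2ra, Csf2rb, Ncf1, Fcgr3, Fcgr4, Lyz2, Sirpa, Ccr2 and Axl), and their values carry that uncertainty.

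**Figure D2:**
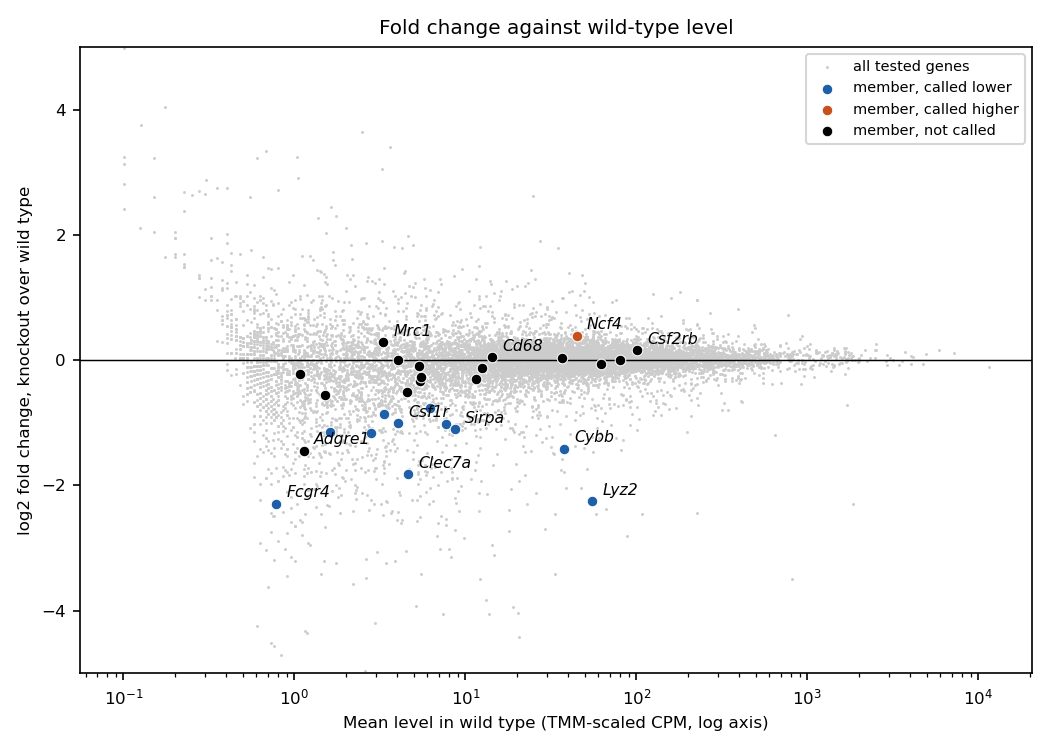
Fitted log2 fold change (knockout over wild type) against mean wild-type level (TMM-scaled CPM, log axis) for all tested genes in grey and members in blue (called lower), orange (called higher) or black (not called), with 10 genes beyond 5 log2 units outside the frame. Lyz2 and Cybb stand below 0 at 55.3 and 37.7 CPM, and the other called members lie under 10 CPM except Ncf4.

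Among the receptors for colony-stimulating factors, the M-CSF receptor gene fell and the GM-CSF receptor genes were not called. Csf1r, which encodes the receptor that monocytes and macrophages need to survive, was at 4.27 and 3.78 CPM in wild type and at 2.0 and 2.01 CPM in knockout. Both knockout libraries lay below both wild-type libraries (log2 fold change -1.0, SE 0.21, edgeR adjusted p = 0.00296). Without knockout replicate 2 its adjusted p was 0.0601, and with DESeq2 it was 0.0878. Csf2ra, the binding chain of the GM-CSF receptor, was at 37.5 and 35.5 CPM in wild type and at 40.0 and 35.1 CPM in knockout, with overlap (0.04, 95% interval -0.13 to 0.21). Csf2rb, the beta chain shared with the IL-3 and IL-5 receptors, was at 103 and 98.8 CPM against 116 and 109 CPM. Its knockout libraries were higher without overlap, yet the test was not passed (0.16, SE 0.06, 95% interval 0.04 to 0.28, edgeR adjusted p = 0.0569). With wild-type replicate 1 left out, Csf2rb was called higher (adjusted p = 0.0108). Per kilobase of the longest coding transcript, Csf2ra and Csf2rb stood close together, at 19.8 and 20.6 CPM per kb in wild type. Csf1r stood at 0.856 CPM per kb in wild type and 0.427 in knockout.

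Csf2rb, Csf2rb2 and Ncf4 lie side by side on chromosome 15 (GRCm38), and their values went different ways. Csf2rb2, a near-identical copy of Csf2rb whose product serves IL-3, lies at 78282507 to 78305721. It fell from 22.7 and 22.6 CPM to 12.3 and 9.60 CPM (-1.05 on the log2 scale, SE 0.11, edgeR adjusted p = 6.03e-06). Its neighbour Csf2rb, at 78325800 to 78351001, was not called. Ncf4, at 78244164 to 78262582 on the other side, rose. Since reads of Csf2rb and Csf2rb2 can be split between the pair, both values are uncertain. Of 5 tested partners and ligands of these receptors 2 fell and 1 rose (12.6% and 10.9% of all tested genes). Csf3r, the G-CSF receptor gene of granulocytes, was the other that fell (-1.76, SE 0.22), while Csf1, the M-CSF gene, rose from 42.1 and 37.2 CPM to 47.9 and 50.03 CPM (0.30, SE 0.07). The call of Csf1 was lost without knockout replicate 2 (adjusted p = 0.179), with DESeq2 (0.0616) and with no filter (0.0933). Il3ra, the IL-3 receptor alpha gene, was at 25.2 and 22.7 CPM against 24.0 and 22.2 CPM.

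The C/EBP factors that set up the myeloid programme were not called. Cebpa, which directs progenitors to the granulocyte and monocyte fates, was at 0.95 and 1.21 CPM in wild type and at 1.13 and 0.72 CPM in knockout. Its 95% interval ran from -1.0 to 0.55 on the log2 scale, so a fall of up to 2-fold was not excluded. Cebpb, induced in activated macrophages, was at 4.02 and 4.03 CPM against 4.41 and 3.67 CPM (0.0058, 95% interval -0.38 to 0.39). Spi1, the PU.1 gene, was at 68.3 and 62.4 CPM in wild type and at 64.7 and 68.2 CPM in knockout, with overlap. The sign of Cebpb turned with upper-quartile normalization (-0.02), as did that of Spi1 (-0.0062). Of 16 tested myeloid transcription factors outside the set, Spi1 among them, 3 were called lower and 2 higher (12.6% and 10.9% of all tested genes). Zeb2 fell by 0.35 (SE 0.06) on the log2 scale and Nr4a1, an early-response nuclear receptor gene, rose by 0.89 (SE 0.13). The call of Zeb2 was lost without knockout replicate 2 (adjusted p = 0.0818). The other 2 called lower were Cebpd and Cebpe, a factor of late granulocyte development, at 0.31 to 0.46 CPM in knockout. Both passed the filter through wild type alone, so their direction was fixed by it. The other that rose was Gfi1 (0.41). These 3 were named after their values were seen.

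The genes of the phagocyte NADPH oxidase moved apart. Cybb encodes gp91phox, the catalytic subunit, and lies on chromosome X at 9435252 to 9487766. It was at 37.6 and 37.9 CPM in wild type and at 14.1 and 14.3 CPM in knockout, a gap far wider than the spread within either pair (log2 fold change -1.41, SE 0.08, edgeR adjusted p = 1.15e-08). Over the fits without 1 library its value ran from -1.42 to -1.40. Cyba, the gene of its membrane partner p22phox, was at 79.5 and 81.6 CPM against 80.1 and 80.9 CPM. Its interval of -0.12 to 0.12 leaves room for a small change only. Ncf1, the gene of the organiser subunit p47phox, was at 13.3 and 11.6 CPM against 11.0 and 11.8 CPM (-0.12, 95% interval -0.36 to 0.11).

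Ncf4, the gene of the cytosolic subunit p40phox, was the 1 member called higher. It was at 45.2 and 44.1 CPM in wild type and at 59.4 and 57.7 CPM in knockout, without overlap (0.39, SE 0.06, edgeR adjusted p = 0.000355). Over the fits without 1 library its value ran from 0.37 to 0.41. Per kilobase of transcript the order in wild type was Cyba (108 CPM per kb), Ncf4 (30.5), Cybb (7.94) and Ncf1 (4.31). In knockout Cybb stood below Ncf1, at 2.96 and 3.01 CPM per kb against 3.83 and 4.09. In wild type it stood above, at 7.91 and 7.97 against 4.6 and 4.02. Of 6 tested partners of the oxidase 1 fell and none rose (12.6% and 10.9% of all tested genes). The share that fell is thus near that of all genes. The gene that fell was Cybc1, whose product helps gp91phox to mature, from 108 and 108 CPM to 92.5 and 96.0 CPM (-0.20, SE 0.05). The call of Cybc1 was lost without knockout replicate 1 (adjusted p = 0.252), without knockout replicate 2 (0.157), with DESeq2 (0.124) and with no filter (0.0670).

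Among activating Fc receptors and the adaptors that signal for them, the 3 genes that reached the filter in both genotypes, Fcer1g, Tyrobp and Fcgr3, all fell. Of all genes that reached it in both, 12% were called lower. Fcgr4, which had to differ, was called lower too. The adaptors carry ITAMs, short tyrosine motifs that recruit the kinase SYK. Fcer1g, the Fc receptor gamma chain gene, was at 7.38 and 8.07 CPM in wild type and at 3.75 and 3.87 CPM in knockout (log2 fold change -1.02, SE 0.15, edgeR adjusted p = 0.000191). Tyrobp, the gene of the adaptor DAP12, was at 5.92 and 6.56 CPM against 3.54 and 3.77 CPM (-0.77, SE 0.16, edgeR adjusted p = 0.00317). Both were lower in each knockout library than in either wild-type library. The call of Tyrobp was lost without knockout replicate 2 (adjusted p = 0.0536) and with DESeq2 (0.0957). Per kilobase the adaptors stood close together in wild type, at 11.3 CPM per kb for Fcer1g and 10.5 for Tyrobp.

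The receptors themselves were at low levels. Fcgr3, a low-affinity IgG receptor gene, was at 3.41 and 3.23 CPM in wild type and at 1.64 and 2.01 CPM in knockout (-0.86, SE 0.23, edgeR adjusted p = 0.0140). Fcgr4, an IgG receptor gene of monocytes, macrophages and neutrophils, had 14 and 17 reads in wild type and 3 and 3 in knockout, rounded. The ratio of summed reads was 5.05 with edgeR adjusted p = 0.00695, and its 95% counting interval ran from 2.08 to 14.8. Neither call was stable: without knockout replicate 1 the adjusted p was 0.136 for Fcgr3 and 0.0663 for Fcgr4, and without knockout replicate 2 it was 0.0741 and 0.0938. With DESeq2 it was 0.231 and 0.173. Fcgr1, the high-affinity IgG receptor gene, had 6 and 8 reads in wild type and 4 and 6 in knockout, and was not tested.

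Fcgr3, Fcgr4 and Fcer1g lie near each other on chromosome 1, at 171051169 to 171065915, 171018926 to 171029761 and 171229572 to 171234349. The inhibitory receptor gene Fcgr2b, which B cells use, lies in the same stretch at 170960558 to 170976071. It was at 25.0 and 23.8 CPM in wild type and at 22.7 and 23.4 CPM in knockout and was not called (-0.08, adjusted p = 0.502). Fcgr2b and Fcgr3 are near-identical over their outer domains, so reads can be split between them. Of 8 tested Fc receptor genes outside the set 1 fell and 1 rose, near the shares of all tested genes (12.6% and 10.9%). Fcmr, the IgM Fc receptor gene, fell by 1.29 (SE 0.25), and Fcrl1, a receptor gene of B cells, rose by 0.87 (SE 0.10). The call of Fcmr was lost without knockout replicate 2 (adjusted p = 0.0590).

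Among 15 tested receptors and kinases that work with these adaptors 8 were called lower and 1 higher (12.6% and 10.9% of all tested genes). Of the 11 that reached the filter in both genotypes 4 fell and 1 rose. Lcp2, the gene of the adaptor SLP-76, fell from 21.6 and 21.6 CPM to 9.14 and 10.4 CPM (-1.14, SE 0.10, edgeR adjusted p = 9.49e-07). Trem1, a receptor gene that signals through DAP12 and is high in neutrophils and monocytes, fell by 1.87 (SE 0.17). Syk itself fell by 0.21 (SE 0.05) from 430 and 401 CPM to 358 and 360 CPM. Plcg2, a phospholipase gene downstream of SYK also used by the B cell receptor, rose by 0.20 (SE 0.05). The call of Plcg2 was lost without knockout replicate 1 (adjusted p = 0.200), without knockout replicate 2 (0.166) and with no filter (0.0568). Clec4e, Clec5a, Cd300lb and Pira2 make up 4 of the 8, and all 4 passed the filter through wild type alone, so their direction was fixed by it. Trem1, Syk and these 4 were named after their values were seen. The summed level of the 5 Fc receptor and adaptor members was 1.90-fold lower in knockout, beside 5.0-fold for the neutrophil markers.

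**Figure D3:**
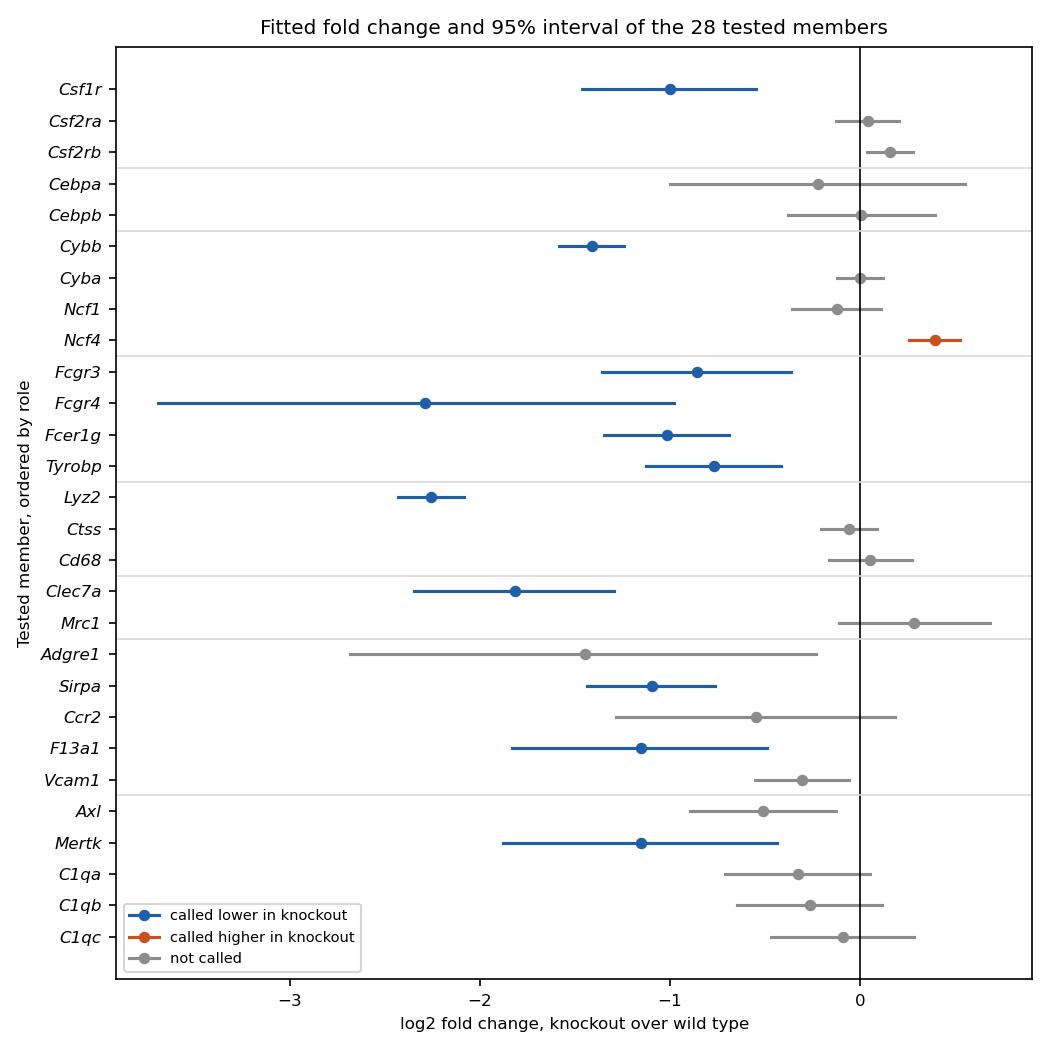
Fitted log2 fold change (knockout over wild type, points) with its 95% interval (lines) for the 28 tested members, ordered by role, in blue where called lower, orange where called higher and grey where not called. Fcer1g, Tyrobp and Fcgr3 lie left of 0, while the oxidase genes run from -1.41 for Cybb to 0.39 for Ncf4.

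Of the lysosomal members Lyz2 fell, and the libraries of the other two overlapped between genotypes. Lyz2, the lysozyme gene of monocytes, macrophages and neutrophils, lies on chromosome 10 at 117277541 to 117282272. It was at 55.8 and 54.9 CPM in wild type and at 11.7 and 11.5 CPM in knockout. The fall was 4.78-fold (-2.26 on the log2 scale, SE 0.08, edgeR adjusted p = 8.22e-11). Over the fits without 1 library the value ran from -2.27 to -2.24. The neutrophil marker sum was 5.0-fold lower in the same libraries. Ctss, the gene of cathepsin S, which cuts the invariant chain in cells that present antigen, was at 58.5 and 66.3 CPM in wild type and at 58.9 and 61.0 CPM in knockout. Its values overlapped (-0.06, 95% interval -0.21 to 0.09). Cd68, a lysosomal membrane glycoprotein gene, was at 15.4 and 13.4 CPM against 15.5 and 14.4 CPM (0.05, 95% interval -0.17 to 0.27). Per kilobase, Lyz2 and Ctss stood at 42.1 and 46.1 CPM per kb in wild type, within reach of each other. In knockout they were at 8.80 and 44.2.

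Outside the set, 6 of 15 tested lysosomal genes fell and 3 rose (12.6% and 10.9% of all tested genes). Gpnmb, a glycoprotein gene of macrophages, fell from 9.04 and 7.46 CPM to 2.52 and 2.48 CPM (-1.72, SE 0.18, edgeR adjusted p = 4.89e-06). Ctsz, the cathepsin Z gene, rose from 139 and 141 CPM to 225 and 232 CPM (0.71, SE 0.05, edgeR adjusted p = 1.92e-07). The cathepsin genes divided: Ctsc and Ctsa also rose (0.30 and 0.17), while Ctsb, Ctsd and Ctsl fell (-0.24, -0.30 and -0.79). These 5 were named after their values were seen.

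Receptors for microbial products were low in all libraries. Clec7a, the gene of Dectin-1, which binds fungal beta-glucan, was at 4.17 and 5.09 CPM in wild type and at 1.39 and 1.24 CPM in knockout. Without overlap, the fall was 3.53-fold (-1.81 on the log2 scale, SE 0.24, edgeR adjusted p = 4.60e-05). Mrc1, the mannose receptor gene of tissue macrophages, was somewhat higher in both knockout libraries, at 3.31 and 3.28 CPM against 3.75 and 4.29 CPM, without a call (0.28, 95% interval -0.11 to 0.68). Cd14, a coreceptor gene for lipopolysaccharide, had 7 and 16 reads in wild type and 6 and 5 in knockout. Marco, a scavenger receptor gene of marginal zone macrophages, had 2 and 8 reads against 5 and 2. Cd14 and Marco fell below the filter and were not tested. Of 14 tested phagocytic and pattern receptors outside the set 6 fell and none rose (12.6% and 10.9% of all tested genes). Itgam, which encodes CD11b of monocytes and neutrophils, led them, at 8.28 and 8.52 CPM against 2.57 and 1.96 CPM (-1.89, SE 0.19).

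All 5 members of the surface, adhesion and migration group were lower in both knockout libraries than in either wild-type library, as were 30.5% of all tested genes, and 2 were called lower, as were 12.6%. Sirpa, which encodes the inhibitory receptor for CD47, was at 9.19 and 8.12 CPM in wild type and at 3.64 and 4.44 CPM in knockout (log2 fold change -1.10, SE 0.16, edgeR adjusted p = 0.000114). F13a1, the factor XIII A chain gene of monocytes and macrophages, was at 3.41 and 2.22 CPM against 0.98 and 1.55 CPM (-1.15, SE 0.31, edgeR adjusted p = 0.0131). Leaving out wild-type replicate 1 ended its call (adjusted p = 0.100), as did leaving out knockout replicate 1 (0.155) or 2 (0.0699) and DESeq2 (0.145). Adgre1, which encodes F4/80, the classical surface marker of mouse macrophages, had 19 and 26 reads in wild type and 2 and 14 in knockout. The knockout libraries lay far apart, and the gene was not called (-1.44, SE 0.57, edgeR adjusted p = 0.0679). Leaving out wild-type replicate 1 gave a call (adjusted p = 0.0411), as did leaving out knockout replicate 2 (0.0308), and over the fits without 1 library its log2 fold change ran from -3.38 to -0.64.

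Ccr2, the receptor gene by which inflammatory monocytes leave the marrow, was at 1.71 and 1.31 CPM in wild type and at 1.28 and 0.77 CPM in knockout (-0.55, 95% interval -1.28 to 0.18). Vcam1, an adhesion gene of marrow stroma and macrophages, was at 11.9 and 11.1 CPM against 9.86 and 8.78 CPM (-0.31, SE 0.11, edgeR adjusted p = 0.0676). It was called lower with upper-quartile normalization (adjusted p = 0.0470) and with the filter of 10 CPM (0.0495). Among 9 stromal and endothelial markers 4 were lower and 2 higher in knockout without overlap. Only 1 of the 9 was tested. The shares of 30.5% and 30.0% are of tested genes, so they are not a like measure for the untested markers. Emcn had 7 and 7 reads in wild type and Adipoq 1 and 1, and both were at 0 in both knockout libraries. Lepr had 1.81 and 2.48 reads in wild type against 3.84 and 10.94, and Col1a2 had 1 and 0 against 4 and 2. Cxcl12 had 1 and 0 against 4 and 0, and Col1a1 had 2 to 8. Pecam1, which leukocytes also express, was at 59.6 to 66.2 CPM. Of 5 tested chemokines and their receptors 3 were called lower and none higher (12.6% and 10.9% of all tested genes). Ccl3 and Fpr2, 2 of the 3, passed the filter through wild type alone and had to be lower. Fpr2, a formyl peptide receptor gene, was at 1.71 and 2.02 CPM against 0.41 and 0.41 CPM (-2.16, SE 0.40). Of 9 tested inhibitory myeloid receptors and their phosphatases 5 were called lower, 1 of them (Cd33) past the filter through wild type alone, and 1 higher. Over all tested genes the shares were 12.6% and 10.9%. Lilrb4a fell by 1.87 (SE 0.20), whereas Ptpn6, the gene of SHP-1, which acts below such receptors, rose by 0.67 (SE 0.05). The summed level of the 5 members was 1.60-fold lower in knockout, beside 5.0-fold for the neutrophil markers.

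Of the 5 members that serve the clearance of dying cells 1 was called, and it fell, where 12.6% of all tested genes were called lower. The C1q chains, made mostly by macrophages, form the recognition part of complement C1, and their genes lie side by side on chromosome 4 between 136880126 and 136898844. C1qa was at 4.97 and 5.90 CPM in wild type and at 3.80 and 4.85 CPM in knockout (log2 fold change -0.33, 95% interval -0.71 to 0.05). C1qb was at 6.32 and 4.69 CPM against 4.67 and 4.49 CPM (-0.27, interval -0.65 to 0.12). C1qc was at 5.97 and 4.79 CPM against 4.52 and 5.58 CPM (-0.09, interval -0.47 to 0.28). None of the 3 was called, and C1qc overlapped between the genotypes. The lower bounds do not reach -1, so a 2-fold fall lies outside each interval. Per kilobase the 3 chains were at 5.23, 5.06 and 4.47 CPM per kb in wild type and at 4.16, 4.21 and 4.20 in knockout, in the order C1qa, C1qb and C1qc.

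Mertk, a receptor tyrosine kinase gene through which macrophages take up apoptotic cells, was at 1.61 and 1.61 CPM in wild type and at 0.67 and 0.77 CPM in knockout. It was called lower (-1.15, SE 0.34, edgeR adjusted p = 0.0193). Leaving out wild-type replicate 2 ended the call (adjusted p = 0.0548), as did leaving out knockout replicate 1 (0.150) or 2 (0.118) and DESeq2 (0.303). Axl, a related kinase gene, was at 4.62 and 4.49 CPM against 3.23 and 3.15 CPM, without overlap (-0.51, SE 0.18, edgeR adjusted p = 0.0509). It was called lower with upper-quartile normalization (adjusted p = 0.0402). Of 9 tested partners in clearance and complement 2 fell and 1 rose (12.6% and 10.9% of all tested genes). C3, the central complement gene, fell from 13 and 11.04 CPM to 2.31 and 2.22 CPM (-2.40, SE 0.18, edgeR adjusted p = 6.63e-08). Abca1, a lipid transporter gene, rose by 0.88 (SE 0.25), but was not called when wild-type replicate 2 (adjusted p = 0.0578) or knockout replicate 2 (0.215) was left out, nor with DESeq2 (0.263) or no filter (0.0739).

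**Figure D4:**
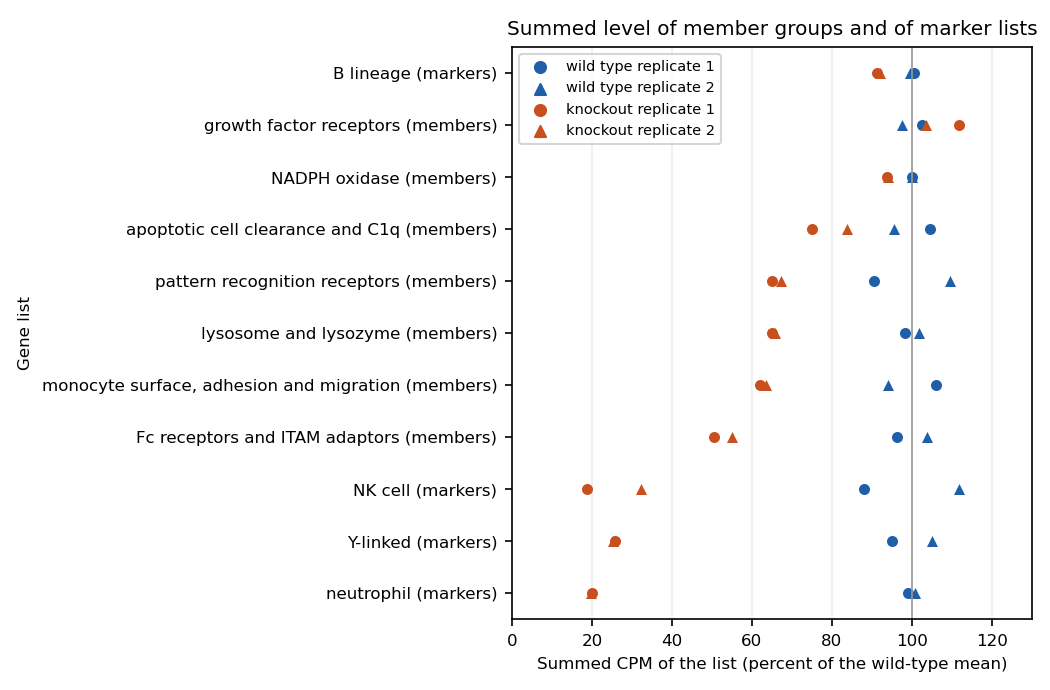
Summed CPM of 7 groups of members and of 4 marker lists in each library, as a percentage of the wild-type mean, with wild type in blue and knockout in orange, circles for replicate 1 and triangles for replicate 2. Neutrophil markers stand near 20 in knockout, the Fc receptor and adaptor members at 50.5 and 55.0, and the oxidase members at 93.9 and 93.9.

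Over the 10 lists of related genes, drawn up beside the members, 37 of 102 tested genes were called lower and 10 higher (12.6% and 10.9% of all tested genes). These lists too were chosen with earlier results of these data known. Of the 37, 9 passed the filter through wild type alone. Among the 92 that reached it in both genotypes 28 fell and 10 rose (12% and 10.8% of all such genes), with a median log2 fold change of -0.11, against 0.0037 for all such genes. The 5 Fc receptor and adaptor members were at 96.2 and 104 percent of the wild-type mean in wild type and at 50.5 and 55.0 percent in knockout. The 3 growth factor receptors, of which Csf2rb makes up most, were at 103 and 97.5 percent against 112 and 103 percent. The sum over all 31 members was 532 and 527 CPM in wild type and 462 and 454 CPM in knockout.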

How the data were processed

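RNA-seq of 4 libraries was used, 2 wild type and 2 knockout by their labelled genotype. The values are expected counts per gene symbol as the authors deposited them, read counts per the file headers. They hold decimals and unequal library totals, so reads were shared between genes and no scaling to a common total was made. GRCm38, HISAT2 2.0.4 and DESeq2 1.4.5 appear in the submitters' processing notes, with no role. How reads were counted, the annotation and the strand setting: not given in the sources used here.

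Counts were rounded and tested with edgeR 4.0.16 in R 4.3.3: quasi-likelihood test, TMM, filterByExpr with a minimum count of 10, no covariate, Benjamini-Hochberg adjustment over 12123 tested genes (4490 were below the filter), called at an adjusted p under 0.05. Standard errors and 95% intervals are of the unshrunk coefficient. On simulated counts of 11983 genes for this comparison the test recovered 72.7% of genes changed 1.5-fold, 91% of those changed 2-fold and 95.3% of those changed 4-fold. Of its 189 calls 19 were false, a share above the 5% aimed at. Only 66, 67 and 64 genes, of mixed levels, were changed, whereas 23.6% of tested genes were called in the data. Of the tested members 18 lay under 10 CPM, so these shares need not hold for them. With 2 against 2 libraries an exact permutation test cannot go below p = 0.333, so none was run. Tried as alternatives were leaving out each library, RLE or upper-quartile normalization, DESeq2 1.42.0, no filter or 10 CPM in 2 libraries, the replicate number as a block, and a minimum fold change of 2. Transcript lengths are of the longest coding GENCODE transcript, and positions and promoters are from RefSeq (GRCm38.p6).

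The members and lists were chosen with earlier results of these data known. Named are all members, Anp32b and Spi1, and in each related list the called gene with the smallest p in each direction. In each list of other cells the most abundant marker was to be named. Other names were chosen after their values were seen.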

Additional observations from a re-analysis of the deposited data

How the results depend on the processing

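Counts of calls are given as lower and higher. In the reported fit they were 11 and 1 of the members, 37 and 10 of the related genes, and 1533 and 1323 of all genes. With DESeq2 they were 5 and 1, 18 and 7, and 715 and 680. With no filter they were 8 and 1, 19 and 6, and 744 and 547. With a filter of 10 CPM they were 3 and 1, 12 and 8, and 1074 and 966, and 9 of the 11 members called lower were then no longer tested. With no filter Fcgr3, F13a1 and Mertk were not called (adjusted p = 0.0597, 0.133 and 0.0584). At a fold change of at least 2 they were 9 and 0, 24 and 0, and 473 and 157. Over the fits without 1 library each they ran from 6 to 11 and from 1 to 2 for members, from 11 to 36 and from 5 to 12 for related genes, and from 579 to 1712 and from 372 to 1676 for all genes. With 1 knockout library left, its variation is assumed to be that of the wild-type pair, whose chi-square per degree of freedom was 4.53 (1.92 for the knockout pair). With upper-quartile normalization 63.0% of all calls were lower, against 53.7%. With the replicate number as a block the counts were 14 and 2 of the members, with Adgre1, Vcam1 and Axl added to those lower and Csf2rb to those higher, and 1779 and 1644 of all genes. The labels do not say whether same-numbered libraries are paired. Their deviations correlated at 0.054 over genes of at least 5 CPM, and 1 correlation cannot exclude a pairing.

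Log2 fold changes near 0 changed sign in some fits. Cyba was at 0.00032 with RLE, 0.0049 with DESeq2 and 0.0027 with no filter. With upper-quartile normalization Cebpb was at -0.024 and Spi1 at -0.0062. Over the fits without 1 library the values ran from -0.054 to 0.13 for Csf2ra, from -0.57 to 0.062 for Cebpa, from -0.13 to 0.13 for Cebpb, from -0.020 to 0.015 for Cyba, from -0.15 to 0.032 for Ctss, from -0.044 to 0.15 for Cd68, from -0.25 to 0.075 for C1qc, from -0.044 to 0.092 for Spi1 and from -1.39 to 0.15 for Itga2b, the most abundant megakaryocyte marker. Where a call was lost or a sign changed, the cause was not tested. Genes named after their values were seen were not followed over these fits. Members under about 1 CPM, such as Fcgr1, Cd14 and Marco, are limited by depth.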

Other observations

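By the rule of naming the most abundant marker of each other cell type, the level of Ngp, a neutrophil granule gene, was 233 and 217 CPM in wild type and 40.3 and 42.8 CPM in knockout. Hba-a1, a haemoglobin gene, was at 65.9 and 85.2 CPM against 89.3 and 88.9 CPM. Lat, an adaptor gene also used by pre-B cells, rose from 35.0 and 38.4 CPM to 75.9 and 70.4 CPM (log2 fold change 1.0, SE 0.07) and makes up most of the T cell sum. Klrb1c, the NK1.1 gene, which passed the filter through wild type alone, was at 2.41 and 2.82 CPM against 0.10 and 0.46 CPM. Bst2 was at 31.2 and 32.5 CPM against 26.2 and 30.1 CPM, and Flt3 at 1.91 and 2.47 CPM against 1.75 and 1.55 CPM. Cpa3, a mast cell protease gene, had 17 and 35 reads in wild type and 19 and 0 in knockout. Pecam1 was at 66.2 and 65.6 CPM against 61.3 and 59.6 CPM. Eif2s3y, a Y-linked gene, fell from 67.6 and 79.1 CPM to 17.3 and 16.3 CPM.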
